A study of Mus musculus with 5 samples.

Results

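ATP-binding cassette (ABC) genes were followed in ID8 cells, a mouse ovarian surface epithelial cancer line, between culture with ascites fluid and culture with fetal bovine serum (FBS). The members were 37 named genes of subfamilies A to G, measured by every probe set of the array that the platform annotation ties to exactly 1 gene. Of these, 35 had such a probe set, 63 probe sets in all, among 12394 genes and 20393 probe sets. Abca5 and Abcc4 had none and were not analysed here. The ascites group (n = 2 arrays, replicates 2 and 3) was grown for 7 days in DMEM with 10% ascites taken from mice bearing ID8 tumours. The FBS group (n = 3 arrays, replicates 1, 2 and 3) was grown in DMEM with 10% FBS. Both groups are the same line with no genetic change named, and the study asked, by its title, whether ascites favours stem-like cancer cells. The labels give no duration for the FBS cells and do not say if serum was also added to the ascites medium. Separate cultures are not stated either, so p values cover the spread between these arrays alone.

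ABC proteins use ATP to move molecules across a membrane. Members of subfamilies A and G, with Abcb4, mostly move lipids and sterols, while Abcb1a, Abcb1b, Abcg2 and the multidrug resistance proteins of subfamily C expel drugs, dyes and glutathione or glucuronide conjugates. Subfamilies E and F carry the ATPase domains without a membrane part and act on ribosomes and translation. In ovarian cancer the drug pumps are studied for chemotherapy resistance, and dye export by Abcg2 and Abcb1 proteins has been used to sort stem-like cells.

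Values are log2 array signals and changes are ascites minus FBS, also in log2, with the standard error (SE) of limma's fit and its p adjusted over all 12394 genes by the Benjamini-Hochberg method. Rose and fell are written for an adjusted p below 0.05. A probe set's signal also depends on its probes, so levels were not compared between genes. The deposited values carry no detection call, and 11 of the 35 members had a mean signal in the lowest 25% of all genes, where it was not shown to lie above background. FBS replicate 3 stood apart from FBS replicates 1 and 2 (SD of the difference over all genes 0.427 from each, against 0.117 between those 2 arrays and 0.239 between the ascites arrays), so each called change is also given without it.

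ID8 cells in ascites had a higher signal of Abca1, Abcb1a and Abcb1b and a lower one of Abca3 than cells in FBS, with the FBS signals of Abcb1a and Abcb1b not shown to lie above background. These were 4 of the 35 members, or 11.4%, of which 3 rose and 1 fell. Over all genes 5.28% were called, 2.69% as risen and 2.59% as fallen. At an unadjusted p below 0.05 there were 12 members (34.3%) beside 24.3% of all genes, and the ascites and FBS arrays did not overlap for 17 members (48.6%) beside 38% of all genes. A change of at least 1 in either direction was seen in 4 members (Abca1, Abcb1a, Abcb1b and Abcc3) beside 5.56% of all genes. The median change was 0.04 over the members and 0.00 over all genes. None of the 4 calls held without FBS replicate 1, without FBS replicate 2, without ascites replicate 2 or without ascites replicate 3 (adjusted p of 0.106 to 0.181), settings in which limma also called 0 of all genes, with 2017 to 2748 at an unadjusted p below 0.05. Their changes kept their direction in each of these. All 4 passed without FBS replicate 3, but that setting keeps the 2 FBS arrays that lay closest and called 20.1% of all genes. Passing there is thus little evidence that a call holds. In RNA of whole cultures, a lower share of cells with a transcript and less of it per cell cannot be told apart.

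The stretches before the start sites of the called genes are shown because these are the members whose signals changed. They are the 250 bases upstream of the start site in RefSeq's GRCm38.p6 table, which held 27 of the 35 members, and are written in the direction of the gene. Abca1 lies on the minus strand at chr4:53159896-53160145, and the others lie on the plus strand, Abcb1a at chr5:8566841-8567090, Abcb1b at chr5:8797897-8798146 and Abca3 at chr17:24351773-24352022. Capitals mark matches to 7 short motifs, sought on both strands.
Abca1: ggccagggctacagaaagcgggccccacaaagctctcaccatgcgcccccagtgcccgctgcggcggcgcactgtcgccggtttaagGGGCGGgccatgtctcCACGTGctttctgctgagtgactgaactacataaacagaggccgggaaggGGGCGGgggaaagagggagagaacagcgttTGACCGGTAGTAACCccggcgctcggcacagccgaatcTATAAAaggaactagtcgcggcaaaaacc
Abcb1a: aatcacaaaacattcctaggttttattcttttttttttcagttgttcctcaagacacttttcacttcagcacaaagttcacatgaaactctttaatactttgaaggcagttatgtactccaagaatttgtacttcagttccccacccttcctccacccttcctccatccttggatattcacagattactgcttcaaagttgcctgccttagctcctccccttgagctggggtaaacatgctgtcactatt
Abcb1b: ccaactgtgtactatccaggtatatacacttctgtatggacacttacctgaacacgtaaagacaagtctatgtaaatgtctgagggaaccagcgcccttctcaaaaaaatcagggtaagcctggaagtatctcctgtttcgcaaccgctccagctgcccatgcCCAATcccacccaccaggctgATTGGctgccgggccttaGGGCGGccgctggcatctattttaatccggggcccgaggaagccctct
Abca3: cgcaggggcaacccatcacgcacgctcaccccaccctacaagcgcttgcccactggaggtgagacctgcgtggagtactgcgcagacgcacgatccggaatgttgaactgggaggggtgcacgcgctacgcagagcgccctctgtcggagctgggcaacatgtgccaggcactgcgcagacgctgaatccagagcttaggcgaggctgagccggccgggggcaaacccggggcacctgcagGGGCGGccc

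The motifs were the GC box (GGGCGG), the CCAAT box (CCAAT), the E-box (CACGTG), the TATA box (TATAAA), an AP-1 site (TGACTCA), an antioxidant element (TGACNNNGC) and a spaced repeat of the kind that the oxysterol receptor LXR binds (GGTNANNNNNGGTNA). The Abca1 stretch held the LXR-type repeat on the opposite strand from position -67, counted from the start site, with a TATA box at -29, an E-box at -147 and GC boxes at -163 and -97. That repeat was in 0.621% of all 32851 such stretches and in 1 of the 33 that belong to members. The E-box was in 6.02% of all stretches, the TATA box in 12.4% and the GC box in 32.7%. The Abcb1b stretch held CCAAT boxes at -87 and, on the opposite strand, at -66, with a GC box at -48, where CCAAT is in 33.8% of all stretches. The neighbouring Abcb1a stretch matched none of the 7 motifs and had 40.4% G and C, while that of Abcb1b had 52.8%. The Abca3 stretch matched the GC box alone, at -9. The AP-1 site (4.46% of all stretches) and the antioxidant element (10.2%) were in none of the 4. A match describes letters and was not tested as a binding site.

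**Figure D1:**
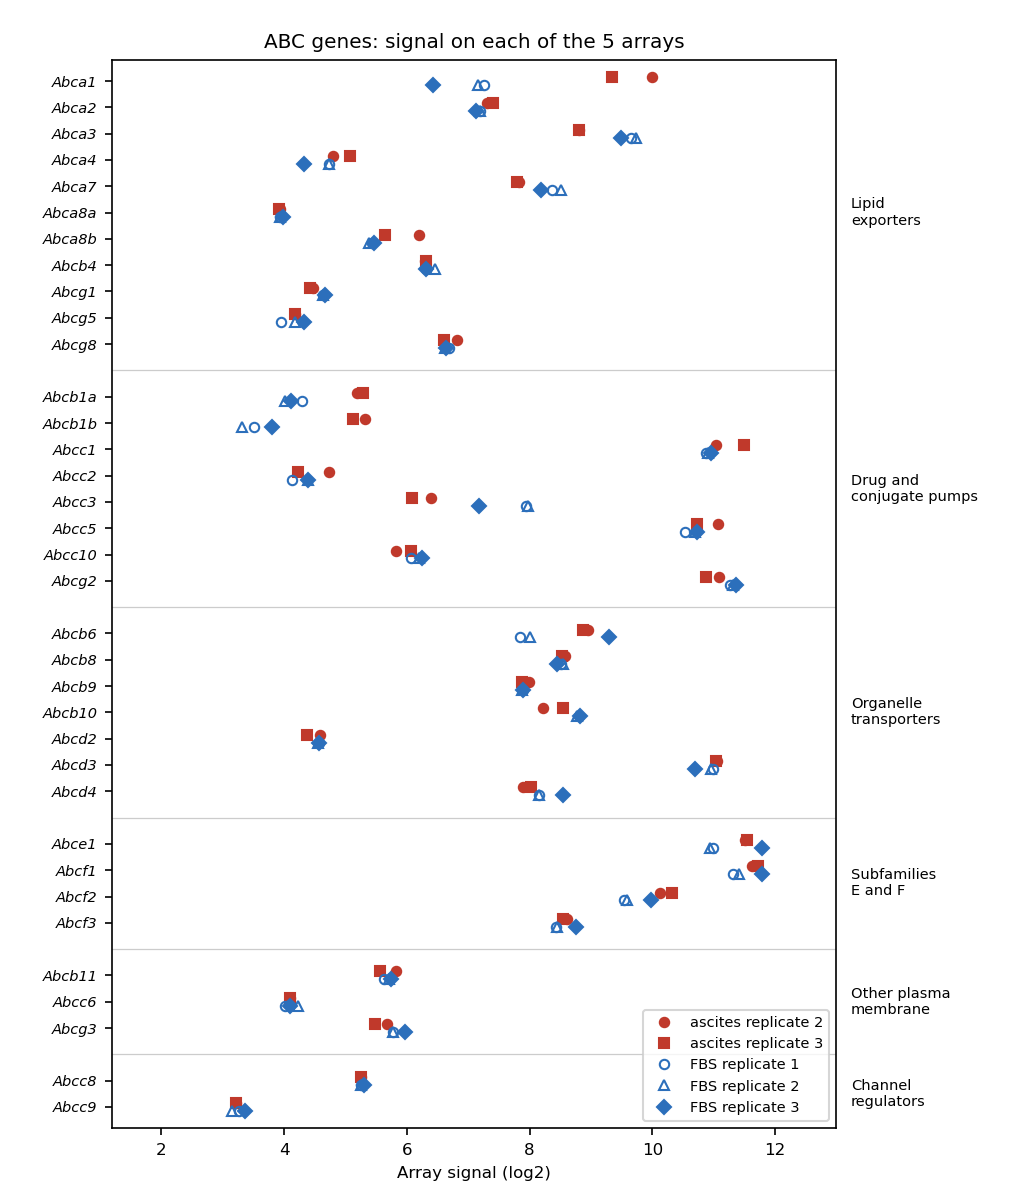
Log2 array signal (horizontal axis) of the 35 measured ABC genes on each array, in role groups down the page, with ascites arrays as red filled symbols and FBS arrays as blue symbols. The ascites arrays of Abca1 (10.00 and 9.35) lie to the right of its FBS arrays (7.26, 7.16 and 6.43), and FBS replicate 3 (filled diamond) stands off for Abcb6 and Abce1.

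Among lipid exporters, Abca1 had the largest change of any ABC gene measured. Abca1 hands cholesterol and phospholipid from the plasma membrane to apolipoprotein A-I, the first step of high-density lipoprotein formation, and is a classic LXR target. Its probe set 1421840_at read 10.00 and 9.35 in the ascites arrays, against 7.26, 7.16 and 6.43 in FBS replicates 1, 2 and 3. Both ascites arrays were above every FBS array, by more than the spread within either group. The gene rose 6.61-fold (log2 change 2.73, SE 0.35, 95% confidence interval 1.78 to 3.67, adjusted p = 0.0349 by limma). FBS replicate 3 was the lowest FBS array, and without it the change was 2.46 (adjusted p = 0.0212). The gene's other probe sets were dim and flat. Probe set 1421839_at read 4.18 and 4.18 in ascites, against 4.18, 4.23 and 4.04 in FBS, and 1450392_at read 3.47 and 3.47 in ascites, against 3.56, 3.38 and 3.47 in FBS. The rise of Abca1 therefore rests on 1 of its 3 probe sets, and the median over them gave a change of 0.03 (adjusted p = 0.847).

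The other sterol exporters gave no such values. Abcg1, which passes cholesterol on to high-density lipoprotein and is also under LXR, read 4.47 and 4.43 in ascites, against 4.63, 4.63 and 4.67 in FBS (log2 change -0.19, 95% interval -0.33 to -0.06, adjusted p = 0.105). The ascites arrays were the lower ones, at a signal in the lowest 25% of genes. Abcg5 and Abcg8, neighbouring genes whose proteins pair to expel plant sterols and cholesterol into bile and gut, gave a change of 0.03 (interval -0.31 to 0.37) and 0.06 (interval -0.15 to 0.28). Abcg8 read 6.81 and 6.61 in ascites, against 6.68, 6.62 and 6.64 in FBS, and Abcg5 read 4.18 and 4.18 in ascites, against 3.95, 4.18 and 4.32 in FBS. The groups overlapped for both.

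Abca3 fell. Its protein loads phospholipid into the lamellar bodies of lung surfactant cells. Its brightest probe set read 8.80 and 8.81 in ascites, against 9.65, 9.74 and 9.49 in FBS. All FBS arrays were higher, and the ascites arrays were nearly equal. The level was 1.77-fold lower in ascites (log2 change -0.82, SE 0.09, adjusted p = 0.0272 by limma), and the change was -0.89 without FBS replicate 3 (adjusted p = 0.00977). The gene's second probe set read 8.0 and 7.69 in ascites, against 8.61, 8.52 and 8.18 in FBS (log2 change -0.59, adjusted p = 0.147 in the fit over all probe sets), and its dimmest one gave a change of 0.02. Taken as the median over its 3 probe sets, the change was -0.59 (adjusted p = 0.137).

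Abca7, which moves phospholipid and is known for its part in phagocytosis and Alzheimer's disease risk, read 7.83 and 7.79 in ascites, against 8.37, 8.52 and 8.19 in FBS. The groups did not overlap, but the change of -0.55 (SE 0.11) missed the threshold (adjusted p = 0.0731), and passed it without FBS replicate 3 (-0.64, adjusted p = 0.0222). Abca2, a lipid transporter of late endosomes and lysosomes, read 7.31 and 7.41 in ascites, against 7.19, 7.19 and 7.13 in FBS (log2 change 0.19, adjusted p = 0.151). Abca8b read 6.20 and 5.64 in ascites, against 5.44, 5.39 and 5.46 in FBS (log2 change 0.49, adjusted p = 0.205), with the ascites arrays further apart than the FBS arrays. Its neighbour Abca8a gave a change of -0.03, the retinal transporter gene Abca4 one of 0.34 (adjusted p = 0.337) and Abcb4, which puts phosphatidylcholine into bile, one of -0.05. In all, 11 of 12 lipid exporters were measured, 1 rose, 1 fell and 9 did not pass, with a median change of 0.03.

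The drug and conjugate pumps included both genes of mouse P-glycoprotein, the efflux pump of the plasma membrane that humans encode in ABCB1. Abcb1b read 5.32 and 5.12 in ascites, against 3.51, 3.31 and 3.81 in FBS. Abcb1a read 5.19 and 5.28 in ascites, against 4.29, 4.02 and 4.12 in FBS. For each gene both ascites arrays lay above all FBS arrays. The FBS signals were not shown to lie above background, so the values that follow are differences between signals, with no fold of the transcripts. The signal of Abcb1b rose by 1.68 (SE 0.17, adjusted p = 0.0245 by limma) and that of Abcb1a by 1.09 (SE 0.10, adjusted p = 0.0216). Without FBS replicate 3 the differences were 1.81 (adjusted p = 0.0116) and 1.08 (adjusted p = 0.0218). The second probe set of Abcb1a was dimmer and read 3.70 and 4.01 in ascites, against 3.31, 3.34 and 3.26 in FBS (log2 change 0.55, adjusted p = 0.0727 over all probe sets).

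All of these P-glycoprotein signals were low. The lowest 25% of probe-set signals ended at 5.12 to 5.16 on the 5 arrays, so all FBS values lay below it. In ascites, Abcb1b and the brighter probe set of Abcb1a lay near it, and the second probe set of Abcb1a lay below it. Abcb1a and Abcb1b are close paralogs next to each other on chromosome 5, and a probe set may not fully tell their transcripts apart. Abcb4, the gene next to Abcb1b on that chromosome, read 6.30 and 6.32 in ascites, against 6.32, 6.46 and 6.31 in FBS.

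Abcc3, which exports glucuronides and bile salts across the basolateral side of epithelia, had the most negative change among the members, without passing. It read 6.40 and 6.09 in ascites, against 7.94, 7.98 and 7.18 in FBS. The groups did not overlap, and FBS replicate 3 lay nearer to the ascites arrays than the other FBS arrays did. The change was -1.46 (SE 0.30, 95% interval -2.26 to -0.65, adjusted p = 0.0735). It passed without FBS replicate 3 (adjusted p = 0.0133).

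Abcg2, the breast cancer resistance protein and the pump behind much dye export in stem-like cells, was lower on both ascites arrays. It read 11.09 and 10.88 in ascites, against 11.26, 11.31 and 11.37 in FBS. The log2 change was -0.33 (95% interval -0.56 to -0.10, adjusted p = 0.113), and it did not pass without FBS replicate 3 either (adjusted p = 0.129). The interval, which is not adjusted for the number of genes, lay below 0.

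Abcc1, which exports glutathione conjugates and leukotriene C4, read 11.04 and 11.49 in ascites, against 10.88, 10.91 and 10.95 in FBS (log2 change 0.35, adjusted p = 0.253). Its second probe set read 8.05 and 8.68 in ascites, against 7.78, 7.58 and 7.29 in FBS (log2 change 0.82, adjusted p = 0.157 over all probe sets). Both put the ascites arrays above every FBS array, with the ascites arrays far apart. Abcc5, an exporter of cyclic nucleotides, had 7 probe sets, of which 6 were higher in ascites by 0.17 to 0.71 and the dimmest gave a change of -0.08. None of them passed. The brightest read 11.07 and 10.73 in ascites, against 10.54, 10.69 and 10.73 in FBS (log2 change 0.25, adjusted p = 0.356), so the groups touched. Abcc2, the pump of conjugates into bile, read 4.74 and 4.22 in ascites, against 4.13, 4.39 and 4.39 in FBS (log2 change 0.18, adjusted p = 0.632), and Abcc10 gave a change of -0.23 (adjusted p = 0.299). Of 9 pumps listed, 8 were measured, 2 rose, 0 fell and 6 did not pass, with a median change of 0.21 that was -0.23 once the dimmest 25% of genes, among them Abcb1a and Abcb1b, were left out.

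**Figure D2:**
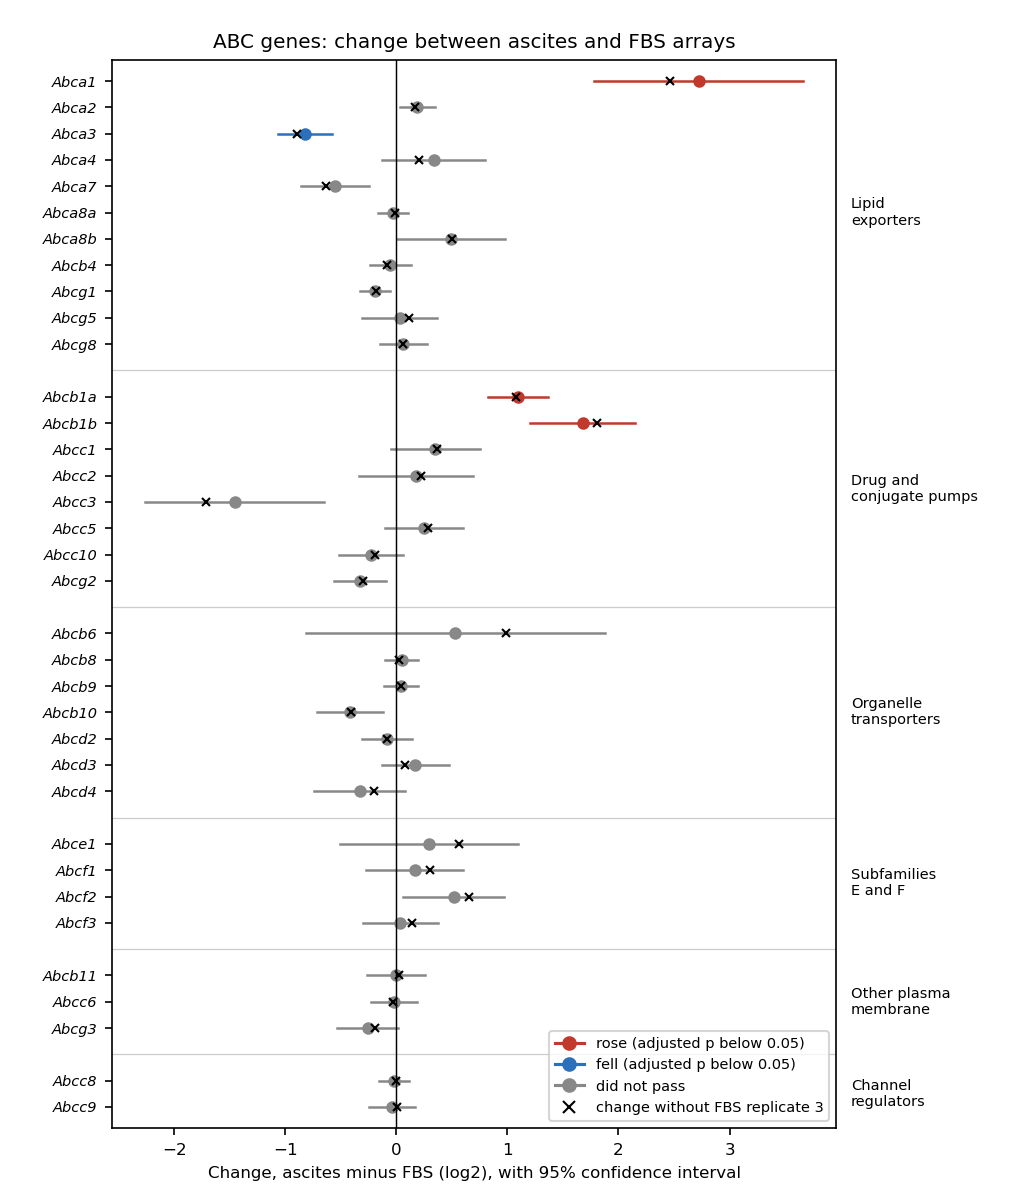
Change in log2 signal, ascites minus FBS (horizontal axis), of each ABC gene with limma's 95% confidence interval, in the same role groups. Red marks genes that rose, blue the gene that fell, grey those that did not pass, and crosses the change without FBS replicate 3, which differs most from the change over all arrays for Abcb6 (0.99 against 0.53).

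Lipid exporters and drug pumps each had values in both directions, 6 higher and 5 lower in ascites among the exporters and 5 higher and 3 lower among the pumps. Beside the median of 0.03 for lipid exporters and 0.21 for the pumps, the median size of change without regard to sign was 0.19 and 0.34, and 0.16 over all genes. Groups did not overlap for 7 of 11 lipid exporters and 5 of 8 pumps, beside 38% of all genes. By subfamily, the calls lay in A (1 rose and 1 fell of 7) and B (2 rose of 8), and none of the 8 members of C, 3 of D, 1 of E, 3 of F and 5 of G passed. Counts this small were not tested between subfamilies.

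None of the 7 organelle transporters passed (1 at an unadjusted p below 0.05), and their median change was 0.04. Abcb6, a porphyrin transporter, read 8.96 and 8.87 in ascites, against 7.84, 8.01 and 9.30 in FBS. Here FBS replicate 3 was the highest of all arrays, so the change of 0.53 (SE 0.50, adjusted p = 0.579) became 0.99 without it and passed (adjusted p = 0.0153). Abcb10, a mitochondrial transporter needed for haem formation in erythroid cells, read 8.22 and 8.54 in ascites, against 8.80, 8.77 and 8.82 in FBS (log2 change -0.42, adjusted p = 0.114). Its other probe sets gave a change of -0.16 and -0.07. The mitochondrial Abcb8 gave a change of 0.05 and the lysosomal peptide transporter Abcb9 one of 0.04. Abcd3, which brings fatty acids into peroxisomes, gave a change of 0.17 (11.06 and 11.04 in ascites, against 10.99, 10.96 and 10.69 in FBS), its relative Abcd2 one of -0.08, and Abcd4, which takes part in the release of vitamin B12 from lysosomes, one of -0.33 (adjusted p = 0.291).

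By their brightest probe sets, the subfamily E and F genes were all higher in mean in ascites. No member passed the threshold, and the median change was 0.23. Abce1, which splits ribosomes for recycling, read 11.51 and 11.55 in ascites, against 10.99, 10.94 and 11.78 in FBS. Abcf2 read 10.12 and 10.32 in ascites, against 9.54, 9.59 and 9.98 in FBS (log2 change 0.52, adjusted p = 0.164). Abcf1, a translation initiation factor, gave a change of 0.17, though 3 of its 6 probe sets were lower in ascites. Abcf3 gave a change of 0.04, and its dimmer probe sets gave 0.21 and 0.32 without passing. FBS replicate 3 lay above the mean of the other FBS arrays for all the subfamily E and F genes, by a median of 0.42. It also read above both ascites arrays for Abce1, Abcf1 and Abcf3. Without it the group's median was 0.43, and Abce1 (adjusted p = 0.013) and Abcf2 (adjusted p = 0.0304) passed.

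None of the 5 remaining members passed or had an unadjusted p below 0.05. The bile salt pump gene Abcb11 gave a change of 0.00, Abcc6, whose loss in humans causes tissue calcification, one of -0.02, and Abcg3, a rodent relative of Abcg2, one of -0.26 (adjusted p = 0.23). The sulfonylurea receptor genes Abcc8 and Abcc9, which regulate potassium channels, were dim and gave a change of -0.02 and -0.04. Over all 35 members, leaving out FBS replicate 3 gave 9 calls (25.7%), 6 risen and 3 fallen, beside 20.1% of all genes called in that setting (9.17% risen and 10.9% fallen). The added genes were Abcb6, Abce1 and Abcf2 among the risen and Abca7 and Abcc3 among the fallen.

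**Figure D3:**
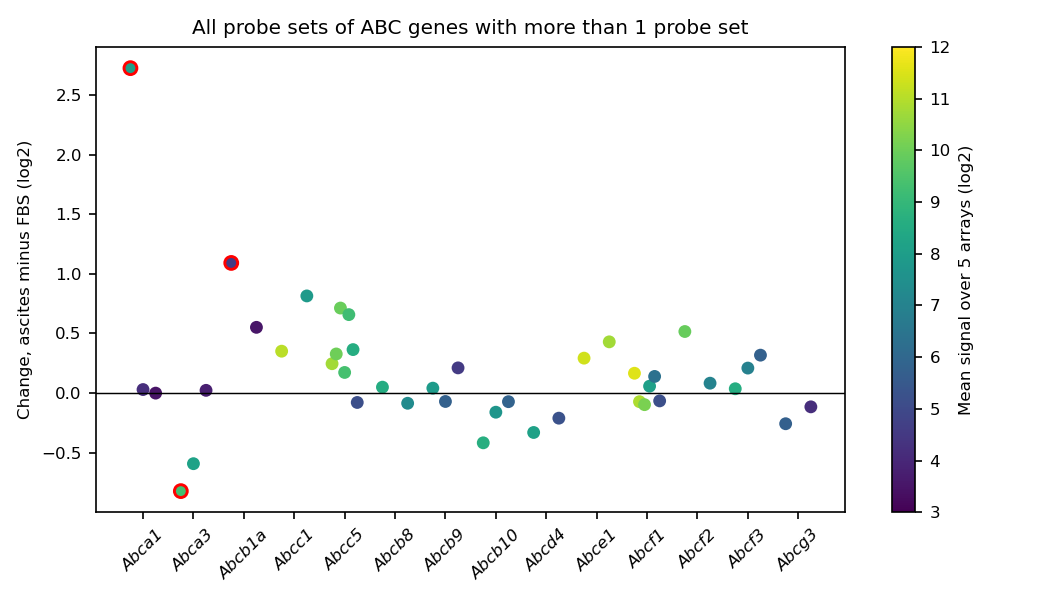
Change in log2 signal, ascites minus FBS (vertical axis), of every probe set of the 14 ABC genes with more than 1 probe set, ordered from the brightest to the dimmest within a gene and coloured by mean signal. Red rings mark probe sets past the threshold, which are the brightest ones of Abca1 (2.73) and Abca3 (-0.82) and the brighter one of Abcb1a (1.09).

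Over all 20393 probe sets fitted together 4.67% were called, and 4 of the 63 ABC probe sets, those already named for Abca1, Abca3, Abcb1a and Abcb1b. In 14 genes several probe sets could be compared. All pointed the same way in Abcb1a, Abcc1, Abcb10, Abcd4, Abce1, Abcf2, Abcf3 and Abcg3, while Abca3, Abcb8, Abcb9, Abcc5 and Abcf1 held both signs and 1 probe set of Abca1 had no change.

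Other genes of cholesterol efflux and LXR signalling were set beside Abca1. Of 18 listed, 16 were measured, 1 rose, 1 fell and 14 did not pass, with a median change of 0.00. Pltp, the phospholipid transfer protein and an LXR target, read 10.13 and 10.16 in ascites, against 9.19, 9.08 and 8.79 in FBS, and rose 2.18-fold (log2 change 1.13, SE 0.14, adjusted p = 0.0328). Without FBS replicate 3 its change was 1.01 (adjusted p = 0.00982). Lpcat3, an enzyme that remodels phospholipids and is also an LXR target, read 10.43 and 10.31 in ascites, against 10.94, 10.98 and 11.14 in FBS, and was 1.57-fold lower in ascites (log2 change -0.65, SE 0.09, adjusted p = 0.0382). Without FBS replicate 3 its change was -0.59 (adjusted p = 0.0196). Known LXR targets lay on both sides, and the part of LXR in these changes was not tested. Srebf1, the gene of SREBP1 and another LXR target, gave a change of -1.0 (SE 0.23, adjusted p = 0.0853), the lysosomal cholesterol carrier Npc2 one of -0.66 (adjusted p = 0.0692) and the lipoprotein receptor Scarb1 one of -0.56 (adjusted p = 0.138). Higher in ascites without passing were Rxrb (log2 change 0.62, adjusted p = 0.265) and Cyp27a1 (log2 change 0.46, adjusted p = 0.239), with no overlap of the groups for either. Mylip, the LXR-induced ligase that degrades lipoprotein receptors, gave a change of 0.11, the LXR gene Nr1h3 one of 0.04 and Apoe one of 0.02.

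**Figure D4:**
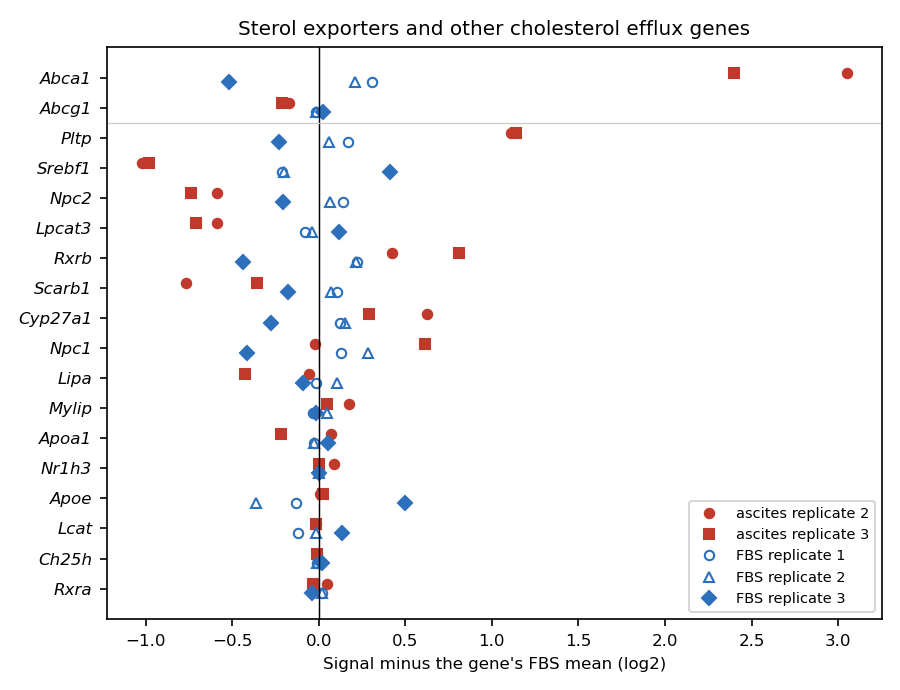
Log2 signal of each array minus the gene's mean over the FBS arrays (horizontal axis) for Abca1, Abcg1 and 16 other cholesterol efflux genes, with ascites arrays in red and FBS arrays in blue. Ascites arrays lie to the right of all FBS arrays for Abca1, Pltp, Rxrb and Cyp27a1. They lie to the left for Srebf1, Npc2, Lpcat3, Scarb1 and Abcg1.

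Other ABC genes outside the members were measured for 4 of 16 listed, and none passed (3 at an unadjusted p below 0.05). The peptide transporter genes of antigen presentation, Tap1 and Tap2, gave a change of 0.53 (adjusted p = 0.0777) and 0.93 (adjusted p = 0.1), the chloride channel gene Cftr one of 0.90 (adjusted p = 0.116) and Abcg4 one of 0.02. Of 13 listed uptake carriers and drug handling genes 8 were measured and none passed (1 at an unadjusted p below 0.05). The smallest p there was that of the vault protein gene Mvp (log2 change -0.23, adjusted p = 0.15). A further list held partners of the organelle and channel members together with ribosome and translation factors. Of its 11 genes 9 were measured and none passed (3 at an unadjusted p below 0.05). The smallest p was that of Pex19, an import receptor for peroxisomal membrane proteins such as Abcd3 (log2 change -0.33, adjusted p = 0.0624), and the ribosome rescue factor Hbs1l gave a change of 0.57 (adjusted p = 0.0735).

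The line was checked against markers, since ascites can carry other cells and macrophages express Abca1 strongly. Of 10 macrophage markers all were measured, 0 passed and 0 had an unadjusted p below 0.05, and their mean signal was 5.08 to 5.20 in the ascites arrays and 5.03 to 5.10 in the FBS arrays. In mean, 6 of them were higher and 4 lower in ascites, and the groups overlapped for all. The largest change was that of Cd68, which read 6.88 and 6.59 in ascites, against 6.71, 6.59 and 5.35 in FBS. Cd14 read 7.63 and 7.15 in ascites, against 6.60, 6.70 and 7.74 in FBS. The leukocyte gene Ptprc was dim and read 3.43 and 3.37 in ascites, against 3.51, 3.34 and 3.43 in FBS. The 8 measured lymphocyte markers averaged 5.08 to 5.09 in ascites and 5.07 to 5.14 in FBS, and the 5 endothelial ones 4.55 to 4.61 in ascites and 4.52 to 4.57 in FBS. limma called 0 in each list, with 1 lymphocyte and 0 endothelial markers at an unadjusted p below 0.05. Of the markers of mesothelium and ovarian surface epithelium, Wt1, Msln, Upk3b, Krt8, Krt18 and Krt19 read above 10 on all 5 arrays, while Aldh1a2 was dim on all and Krt7 on the ascites arrays. These markers moved with the groups. Of 9 measured, 8 were lower in ascites, 2 fell (Krt18 by 1.43 and Krt19 by 0.88 in log2, and by 1.56 and 0.90 without FBS replicate 3), and their mean was 9.81 to 10.11 in ascites and 10.65 to 11.61 in FBS. Bnc1, a mesothelial transcription factor gene, had the most negative change of the list without passing and read 8.35 and 7.71 in ascites, against 11.78, 11.67 and 10.21 in FBS (log2 change -3.19, adjusted p = 0.0605). It passed without FBS replicate 3 (-3.70, adjusted p = 0.0124). Wt1, which marks this lineage, read 11.17 and 10.83 in ascites, against 12.75, 12.72 and 11.83 in FBS. Fibroblast markers averaged 6.27 to 6.45 in ascites and 6.62 to 7.36 in FBS, with 0 of 6 called by limma (2 at an unadjusted p below 0.05). Erythroid ones averaged 6.66 to 6.73 in ascites and 6.69 to 7.28 in FBS, with 0 of 5 called and 0 at an unadjusted p below 0.05. Among these, Tfrc read 10.89 and 10.68 in ascites, against 11.16, 11.03 and 13.07 in FBS. The other erythroid markers gave changes of -0.13 to 0.06. The part of other cells, macrophages among them, and of the mesothelial and fibroblast shifts in the ABC values was not tested.

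**Figure D5:**
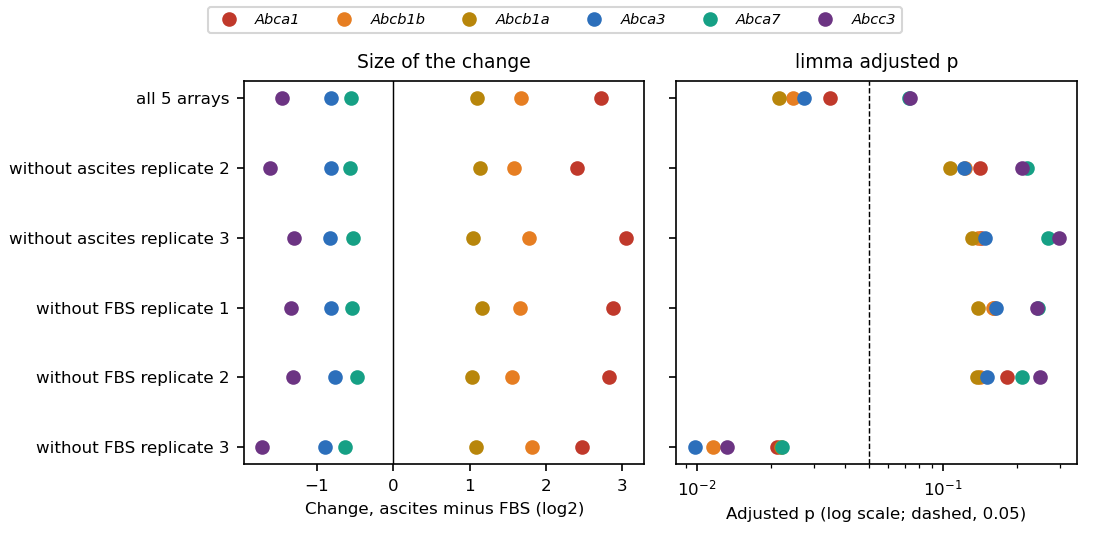
Change in log2 signal, ascites minus FBS (left), and limma's adjusted p on a log axis (right) for 6 ABC genes with all 5 arrays and with each array left out in turn. The changes keep their sign in every row, while the adjusted p passes 0.05 only with all arrays (not for Abca7 and Abcc3) and without FBS replicate 3 (all 6 genes).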

How the data were processed

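RNA of ID8 cells, 2 ascites and 3 FBS samples, was hybridised to an Affymetrix mouse array. Affymetrix Expression Console made the values, per the submitters' processing notes; its version, how probes were summarised and the normalization were not stated. The deposited values were taken as log2 signals from their range, with array medians of 7.4 to 7.47, and were not normalized further. Of 22690 probe sets, 64 were controls and 1555 others were not listed in the platform annotation. It gave 1 gene to 20393, of which 20364 matched RefSeq (GRCm38.p6) by Entrez identifier, and several genes to 691. A gene's brightest probe set by mean signal over the arrays stood for the gene. The ascites and FBS groups were compared with two-sided tests of limma 3.58.1 (R 4.3.3; functions lmFit and eBayes), without a covariate, with 3 residual and 1.33 prior degrees of freedom. The number of arrays limits the precision, and with no detection call a dim signal may be background. The fit was tested on simulated data with independent noise for each gene and array. Those data lacked the deviation that many genes share on FBS replicate 3, so they cannot show how far the calls here hold. All members are given, with array values for sterol exporters, the main drug pumps and every member with an unadjusted p below 0.05. Members and lists were chosen with earlier results of these data known, and lists were given no test.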

Additional observations from a re-analysis of the deposited data

How the results depend on the processing

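The direction of the 12 members with an unadjusted p below 0.05 was the same under each of the 14 alternatives that gave a value. Abcb1a, Abcb1b and Abcg1 gave none with the dimmest 25% of genes left out. The calls depended on the arrays. With each array left out in turn, 0 to 6 members rose, 0 to 3 fell, 0 to 2494 of all genes were called (654 with all arrays), 0 to 11 ABC probe sets (4) and 0 to 7 other listed genes (2). Without FBS replicate 3 the counts were the highest of these ranges, and without any other array they were 0. They were also 0, for members, probe sets, listed genes and all genes, with FBS replicates 1 and 2 averaged as 1 sample and with the replicate block over replicates 2 and 3 of both groups, where 1 degree of freedom was left. In these 6 settings 7 to 13 members and 1892 to 2748 of all genes had an unadjusted p below 0.05 by limma. Whether the replicate numbers pair the samples was not settled. The difference between replicates 2 and 3 correlated at 0.0393 across genes between the groups. That value cannot decide the question, because the large deviation of FBS replicate 3 enters the FBS difference and could hide a shared part.

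Array weights gave 4 fallen members, 9 ABC probe sets, 12 other listed genes and 2612 genes in all. Quantile normalization gave 2 fallen members, adding Abcc3. The median of a gene's probe sets gave 2 risen members and 0 fallen ones. Abca1 lost its call there (log2 change 0.03, adjusted p = 0.847 by limma). An intensity trend gave 1 other listed gene. Leaving out dim genes gave 1 risen member, because Abcb1a and Abcb1b were among the genes left out. Leaving out dim probe sets gave 2 called ABC probe sets. The median change of all members was -0.018 with the median of a gene's probe sets and -0.02 with the replicate block (0.04 with all arrays), and -0.02 to 0.07 with 1 array left out. For lipid exporters it was -0.013 with FBS replicates 1 and 2 averaged and -0.04 with the replicate block, and -0.04 to 0.06 with 1 array left out (0.03). For pumps it was -0.23 without dim genes, and -0.0033 to 0.27 with 1 array left out (0.21). For organelle transporters it was -0.07 with the median of probe sets and -0.013 to 0.07 with 1 array left out (0.04). For subfamilies E and F it was 0.42 with array weights and 0.12 to 0.43 with 1 array left out (0.23). For other plasma membrane members it was -0.13 without dim genes and -0.13 to 0.005 with 1 array left out (-0.02). Apart from that of subfamilies E and F, which was positive in each setting, these medians changed sign between settings, and the causes were not tested. Signal over background, unknown here, limits what can be said of the 11 dimmest members.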
